A study of Homo sapiens with 12 samples.

Results

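The mitotic cyclins, kinases and spindle genes described here are 10 of the 47230 probes on an Illumina expression BeadChip, read on 12 arrays of WM35 cells. The probes were taken by identifier from a list that pairs each with a gene. The list uses no measured value, but it was drawn up with earlier results of these data known. They are CCNA2 (ILMN_1786125), CCNB1 (ILMN_1712803), CCNB2 (ILMN_1801939), CDC20 (ILMN_1663390), TOP2A (ILMN_1686097), AURKA (ILMN_1680955), PLK1 (ILMN_1736176), TPX2 (ILMN_1796949), KIF20A (ILMN_1695658) and ILMN_1714730. The array annotation listed the other 9 with 1 gene each but did not list ILMN_1714730, which the selecting list pairs with UBE2C, so that probe goes by its identifier here. All 10 probes were detected on all 12 arrays, and none had a detection p of 0.01 or more.

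WM35 is an established human melanoma cell line. It was exposed to ciclopirox, an antifungal compound that chelates iron, for 8 h (3 arrays) or 24 h (2 arrays), to crizotinib, an inhibitor of receptor tyrosine kinases that include MET and ALK, for 8 h (3 arrays) or 24 h (2 arrays), or to the vehicle DMSO as control (2 arrays). Both drugs were dosed at their 75% inhibitory concentration, as measured at 72 h. All groups shared the cell line, the serum-containing medium and the BeadChip, and the titles of the control samples carried no time, so both times were set against the same 2 controls. Without a timed control, drug effect and time in culture cannot be told apart against control or between the times. The study asked whether expression signatures of the drugs relate to the outcome of melanoma patients.

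Progression through mitosis depends on cyclins that activate the kinase CDK1. Cyclin A2, from CCNA2, acts in S phase and into early mitosis, and cyclins B1 and B2, from CCNB1 and CCNB2, act at mitotic entry. The kinases AURKA and PLK1 drive centrosome maturation and spindle assembly, TPX2 binds and activates AURKA on spindle microtubules, and TOP2A untangles sister DNA. CDC20 switches on the anaphase promoting complex, the ubiquitin ligase that sends cyclin B to degradation, UBE2C is an E2 enzyme of that ligase, and KIF20A is a kinesin of the late spindle and cytokinesis. Transcripts of such genes accumulate in G2 and M phase. Their promoters are known for CCAAT boxes, bound by NF-Y, and for the cell cycle genes homology region (CHR), bound by the MuvB core, which represses them in quiescent cells as part of the DREAM complex and activates them in G2 phase together with MYBL2 and FOXM1.

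The promoters of 4 members are shown because the 10 members moved together across the arrays, as described below. Any link of motifs to that movement was not tested. CCNB2, CDC20 and PLK1 hold CHR letters in the window shown, and CCNB1 does not. CCNA2, KIF20A and TOP2A, also without CHR letters in that window, are not shown. Each is the 130 bases before the RefSeq start of the gene in build GRCh38.p14, read 5′ to 3′ on the gene's strand. Capitals mark CCAAT (or its reverse complement ATTGG) and the CHR letters TTTGAA or TTCGAA (or their reverse complements), with both strands searched. No other form of the CHR was searched, so a window without these letters is not shown to lack a CHR. All 4 lie on the plus strand, CCNB2 at chr15:59105016-59105145, CDC20 at chr1:43358851-43358980, PLK1 at chr16:23678759-23678888 and CCNB1 at chr5:69167020-69167149.
CCNB2: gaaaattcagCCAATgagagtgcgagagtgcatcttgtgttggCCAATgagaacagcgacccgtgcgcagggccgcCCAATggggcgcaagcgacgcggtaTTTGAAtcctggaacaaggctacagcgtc
CDC20: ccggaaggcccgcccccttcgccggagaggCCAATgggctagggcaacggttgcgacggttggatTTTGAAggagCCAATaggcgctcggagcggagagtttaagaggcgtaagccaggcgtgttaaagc
PLK1: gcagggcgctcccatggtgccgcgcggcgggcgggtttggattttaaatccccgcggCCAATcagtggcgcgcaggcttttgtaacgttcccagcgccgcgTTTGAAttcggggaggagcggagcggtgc
CCNB1: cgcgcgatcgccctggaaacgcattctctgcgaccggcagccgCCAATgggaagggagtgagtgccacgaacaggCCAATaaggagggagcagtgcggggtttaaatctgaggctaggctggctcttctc

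In CCNB2 the CCAAT boxes began 120, 87 and 54 bases before the start, and the CHR letters 29 bases before it. PLK1 carried its CHR letters at the same distance of 29 bases, with a single CCAAT box at 73 bases. CCNB1 had CCAAT boxes at 87 and 55 bases and no CHR letters in its window, and CDC20 had CCAAT boxes at 100 and 55 bases with CHR letters between them at 65 bases. In the sequences shown no CCAAT box overlapped CHR letters. RefSeq promoters of 300 bases (250 before and 50 after the start) were matched for 7 of the 9 annotated members, with none for AURKA and TPX2. A CCAAT box was present in 7 of these 7 and in 34.6% of all 35116 promoters, and CHR letters were present in 4 of 7 (CCNB2, CDC20, TOP2A and PLK1) and in 16.4% of all promoters. At least 2 CCAAT boxes were present in 5 of 7 and in 10.8% of all. These matches describe letters in a window and were not tested.

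The labels of the arrays were not settled by the deposited files. The sample descriptions tie each sample to 1 of 12 positions on the BeadChip, A to L, and the non-normalized table holds a column per position. The value table holds a column per sample. When each value-table column was set against every position, it followed a single one closely (Spearman's rho between 0.965 and 0.9735, next best at most 0.8989), but 10 of the 12 columns followed another position than the one in that sample's description. For 5 arrays both tables gave the same group: F ciclopirox 24 h, H and I crizotinib 8 h, and A and B control. The other 7 had 2 group labels. By description C, D and E were ciclopirox 8 h, G was ciclopirox 24 h, J was crizotinib 8 h, and K and L were crizotinib 24 h. By value table C and D were crizotinib 24 h, E was ciclopirox 24 h, G was crizotinib 8 h, and J, K and L were ciclopirox 8 h.

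Each comparison is therefore given under both sets of labels, called the description labels and the value-table labels, and, where possible, over the 5 arrays with 1 label. With every probe set to a mean of 0 over the arrays, those of the same value-table label correlated with a mean r of 0.375 (9 pairs, lowest 0.168), and 12 of 12 arrays were nearest to an array of their own label. With the description labels the mean was 0.15 (9 pairs, lowest -0.264), and 5 of 12 arrays were nearest to their own label. These correlations are across 18285 probes of arrays on 1 BeadChip and describe the arrays. They were not used to choose labels. Groups fill neighbouring positions under both sets, so group and position cannot be told apart.

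The arrays were of similar quality. They detected 15561 to 17106 probes each, with a mean signal of 346 to 398 per array. SOX10, a transcription factor of the melanocyte lineage, was detected on 12 arrays and MITF on 11, whereas PMEL, MLANA, TYR, TYRP1 and S100B, other markers of that lineage, were detected on 0. Among markers of other cells, 0 of 4 keratinocyte and 0 of 3 leukocyte genes with a probe were detected on any array, and of 6 fibroblast genes PDGFRB was detected on 5 arrays, COL1A2 on 1 and the other 4 on 0.

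Without any label beyond the 2 controls, on which the tables agreed, the members could be read array by array. On arrays C, D, E and F all 10 members lay below both controls, and their mean differed from the control mean by -0.545, -0.562, -0.618 and -0.691 log2 units in that order. On arrays G, H and I all 10 lay above both controls, by a mean of 0.412, 0.44 and 0.374 log2 units. On J, K and L they lay on either side, with mean differences of 0.0235, -0.111 and -0.0229. For comparison, 37.5% to 43% of all 18285 probes lay below both controls on an array and 36.3% to 41.7% above both. The members varied together, and over the 12 arrays their 45 pairs had correlations between 0.674 and 0.978, with a median of 0.872. CDC20 and PLK1 followed the mean of the other 9 least closely (r of 0.835 and 0.863). In bulk RNA, fewer dividing cells and less transcript per dividing cell cannot be told apart.

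**Figure D1:**
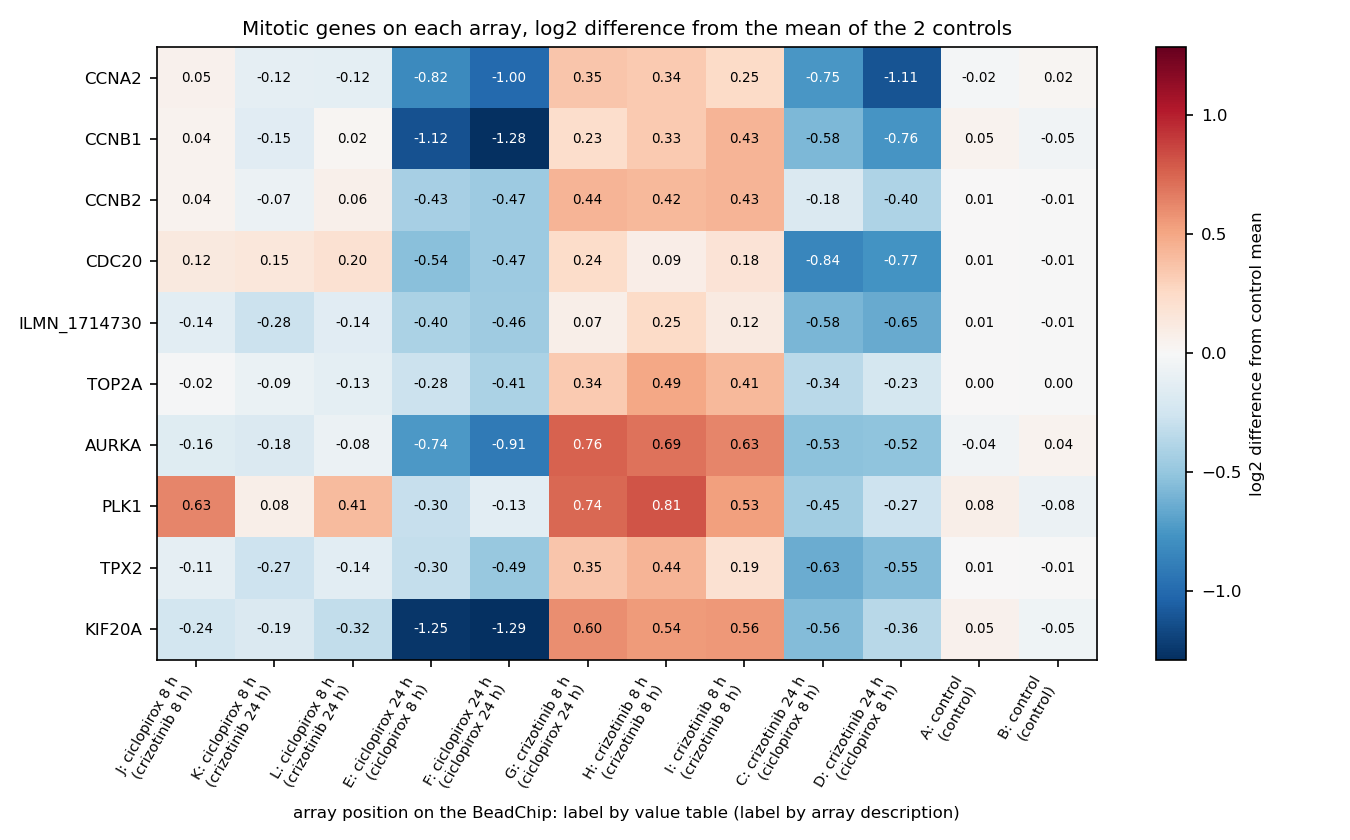
Log2 difference of each of the 10 probes (rows) from the mean of the 2 controls on each of 12 arrays (columns, by position, with the value-table label and below it the description label in brackets); blue is lower and red higher. All 10 members lie below both controls on C, D, E and F and above both on G, H and I.

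Among the cyclins, the log2 normalized intensity of CCNA2 from position C to L was 10.36, 10.01, 10.30, 10.11, 11.47, 11.46, 11.37, 11.17, 10.999 and 10.99, against 11.10 and 11.14 on controls A and B. The lowest array was D and the highest G. CCNB1 read 8.22, 8.04, 7.67, 7.51, 9.02, 9.13, 9.23, 8.84, 8.65 and 8.82 from C to L, against 8.84 and 8.75 on A and B. It was lowest on E and F, which spanned 7.51 to 7.67 while C and D lay at 8.22 and 8.04. CCNB2 read 11.64, 11.43, 11.39, 11.36, 12.26, 12.24, 12.26, 11.87, 11.75 and 11.88 from C to L, against 11.83 and 11.81 on A and B. Its whole range of 0.904 log2 units was smaller than that of CCNA2 (1.47) and CCNB1 (1.72).

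Among the genes of the anaphase promoting complex, CDC20 read 13.08, 13.15, 13.38, 13.45, 14.16, 14.01, 14.10, 14.04, 14.06 and 14.12 from C to L, against 13.92 and 13.91 on A and B. It was lowest on C and D, where CCNB1 was not lowest, and on J, K and L it lay above both controls. ILMN_1714730 ranged from 11.14 on D to 12.03 on H with a median of 11.65. The annotated probes of UBE2C, ILMN_2265654 and ILMN_2301083, correlated with it over the 12 arrays at r of 0.947 and 0.971.

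Of the kinases and their partner, AURKA read 10.77, 10.78, 10.56, 10.39, 12.06, 11.995, 11.93, 11.14, 11.12 and 11.22 from C to L, against 11.26 and 11.34 on A and B. It was lowest on F and highest on G. PLK1 read 7.56, 7.74, 7.70, 7.87, 8.74, 8.81, 8.53, 8.64, 8.09 and 8.41 from C to L, against 8.08 and 7.93 on A and B. Array J lay 0.63 log2 units above the control mean for PLK1, in the range of G, H and I, while for the other 9 members J lay between -0.24 and 0.12. TPX2 ranged from 9.436 on C to 10.51 on H with a median of 9.945.

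KIF20A read 10.61, 10.81, 9.93, 9.88, 11.77, 11.72, 11.73, 10.93, 10.98 and 10.86 from C to L, against 11.22 and 11.12 on A and B. It had the widest range of the members, 1.88 log2 units, and E and F lay below C and D. TOP2A ranged from 11.23 on F to 12.14 on H, with a median of 11.59.

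**Figure D2:**
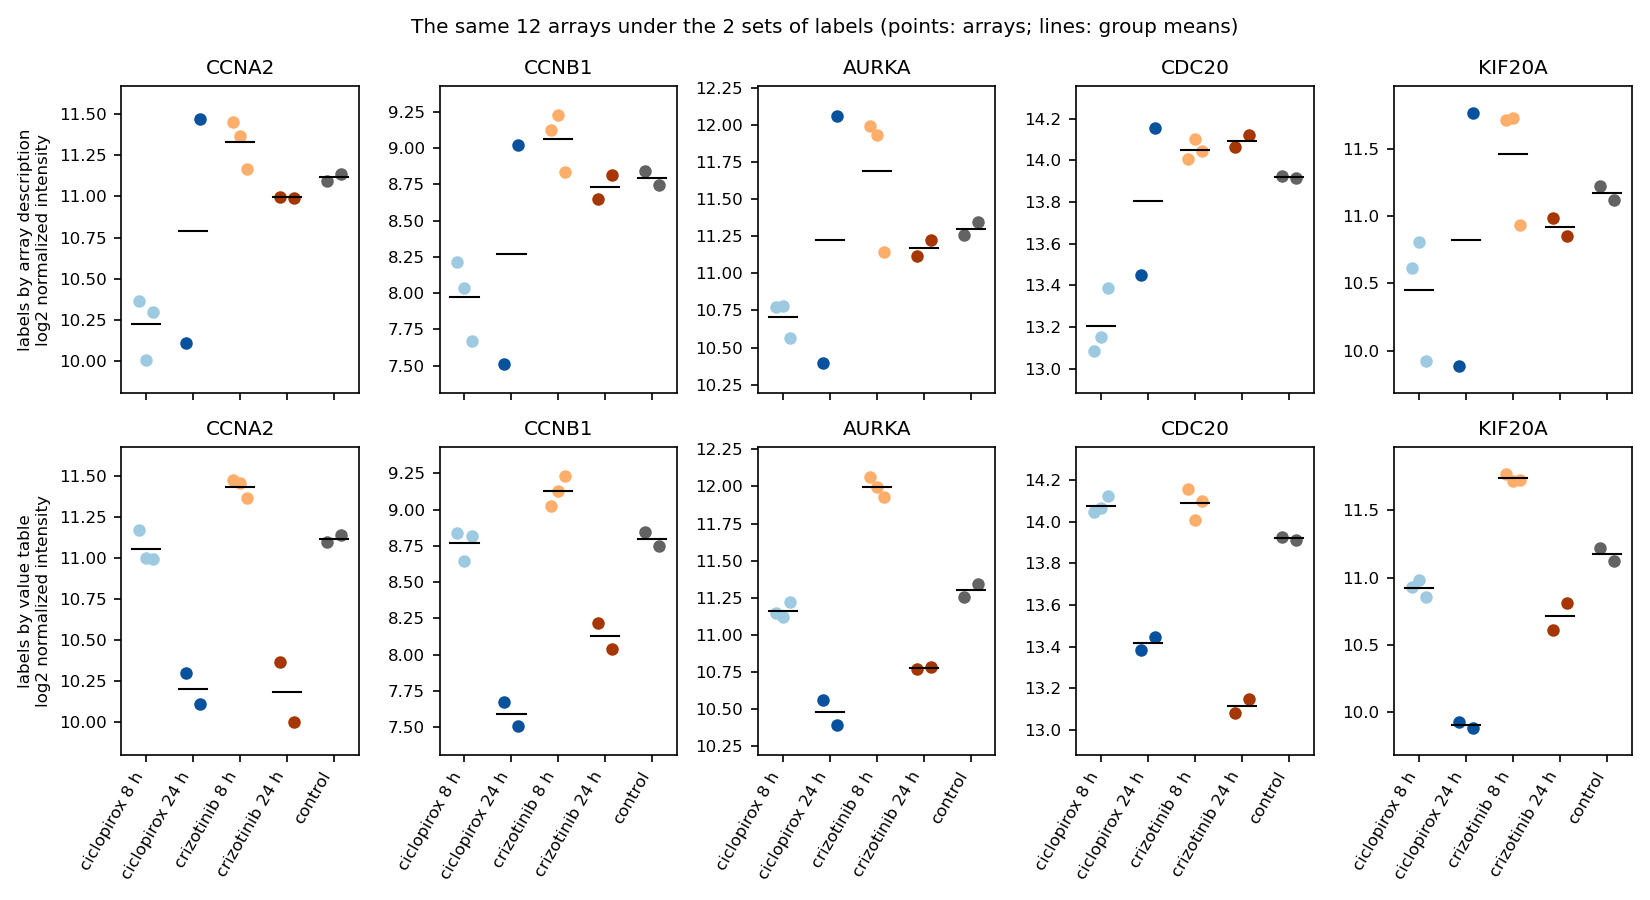
Log2 normalized intensity of 5 members on the same 12 arrays (points) grouped by the description labels (upper row) and by the value-table labels (lower row); lines are group means. Under the description labels the 2 ciclopirox 24 h arrays stand at 10.11 and 11.47 for CCNA2, and under the value-table labels at 10.11 and 10.30.

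Ciclopirox at 24 h gave lower mitotic transcripts than control under the value-table labels. There 9 of 10 members fell (limma, adjusted p below 0.05), beside 14.6% of all 18285 probes called in either direction. KIF20A fell most, to 9.91 ± 0.03 on ciclopirox 24 h arrays against 11.17 ± 0.07 on control arrays (SD, n = 2 each), a 2.41-fold difference (log2 -1.27 ± 0.10 SE, limma adjusted p = 3.633e-05). CCNB1 fell 2.30-fold (log2 -1.20 ± 0.12, limma adjusted p = 0.000142) and CCNA2 1.88-fold (-0.91 ± 0.13, adjusted p = 0.00132). AURKA fell by 0.82 log2 units, CDC20 by 0.50, CCNB2 by 0.45, ILMN_1714730 by 0.43, TPX2 by 0.40 and TOP2A by 0.35. PLK1 had a difference of -0.22 ± 0.17 (limma adjusted p = 0.433). For all 10 members both ciclopirox 24 h arrays lay below both controls, as for 29.5% of all probes. Of the 7 melanocytic genes with a probe, 5 were detected on no array, and SOX10 (11 to 11.65 log2 units) far exceeded MITF (5.333 to 5.868). The melanocytic marker sum therefore mostly reads SOX10. This sum was 3043 to 3370 on these ciclopirox 24 h arrays and 2944 to 3106 on controls, and its part in the members' values was not tested.

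By description 0 of 10 members passed the test at 24 h of ciclopirox, at an unadjusted p below 0.05 also 0, and 0.00547% of probes were called by limma. The 2 arrays of the group, F and G, lay on opposite sides of control for all 10 members, so that KIF20A averaged 10.83 ± 1.33 on ciclopirox 24 h arrays and 11.17 ± 0.07 on control arrays (SD, n = 2 each). Over the 5 arrays with 1 label, where F alone stands for ciclopirox 24 h and takes its spread from the other groups, 4 members fell and 1.94% of probes were called. They were CCNB1 (log2 -1.28 ± 0.14, limma adjusted p = 0.0265), KIF20A (-1.29 ± 0.13, adjusted p = 0.0256), CCNA2 (-1.004 ± 0.13, adjusted p = 0.0397) and AURKA (-0.91 ± 0.13, adjusted p = 0.0454). Under the value-table labels 5 members were called when 1 control array, A or B, or 1 ciclopirox 24 h array, E or F, was left out.

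At 8 h of ciclopirox no member passed the test as fitted under either set of labels, but the values differed between the sets. With the value-table labels 0 of 10 members passed (limma; 2 at an unadjusted p below 0.05, PLK1 and KIF20A), beside 0.536% of probes. KIF20A averaged 10.92 ± 0.07 on ciclopirox 8 h arrays (SD, n = 3) and 11.17 ± 0.07 on control arrays (SD, n = 2), a difference of -0.25 ± 0.09 log2 units (limma adjusted p = 0.287). PLK1 lay higher, at 8.38 ± 0.28 on ciclopirox 8 h arrays (SD, n = 3) and 8.00 ± 0.11 on control arrays (SD, n = 2), a difference of 0.37 ± 0.16 (limma adjusted p = 0.346). The other 8 differences lay between -0.18 and 0.16.

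By description the 10 members lay below control on every ciclopirox 8 h array, as did 20.6% of all probes. None of these differences passed the test (limma; 0 of 10 called, 4 at an unadjusted p below 0.05, with 2.84% of probes called). The largest were those of CCNA2 (log2 -0.89 ± 0.29, limma adjusted p = 0.108), CCNB1 (-0.82 ± 0.34, adjusted p = 0.179), KIF20A (-0.72 ± 0.45, adjusted p = 0.371) and CDC20 (-0.71 ± 0.18, adjusted p = 0.0565). CDC20 averaged 13.21 ± 0.16 on ciclopirox 8 h arrays (SD, n = 3) and 13.92 ± 0.01 on control arrays (SD, n = 2). When 1 ciclopirox 24 h array, F or G, was left out 3 members were called lower, and without array E (ciclopirox 8 h replicate 3) 1 was. With array weights 4 were called lower, and without arrays E, G and J, an alternative chosen with earlier results known, 7 were.

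At 8 h of crizotinib, arrays H and I, which both tables label so, lay above both controls for all 10 members. By value table all 10 lay above both controls on every crizotinib 8 h array, as did 17.8% of all probes, and 3 passed the test beside 1.53% of probes called. AURKA rose 1.62-fold, to 11.997 ± 0.07 on crizotinib 8 h arrays (SD, n = 3) against 11.30 ± 0.06 on control arrays (SD, n = 2), a difference of 0.70 ± 0.09 (limma adjusted p = 0.00413). KIF20A rose 1.48-fold (log2 0.57 ± 0.09, limma adjusted p = 0.015) and CCNB2 1.35-fold (0.43 ± 0.09, adjusted p = 0.0478). PLK1 and TOP2A had differences of 0.69 ± 0.16 and 0.41 ± 0.09 (limma adjusted p = 0.0555 and 0.0534). Without control A (replicate 1) 0 were called, and without control B (replicate 2) or crizotinib 8 h replicate 1 (array G) 1 was. With each array centred on its median, which moved the median of all probes by -0.125, 1 was called and all 10 differences stayed above 0.

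With the description labels 0 of 10 passed for crizotinib at 8 h (limma; 1 at an unadjusted p below 0.05, PLK1), with 0% of probes called. All 10 differences were above 0, between 0.08 and 0.66 log2 units. PLK1 averaged 8.66 ± 0.14 on crizotinib 8 h arrays (SD, n = 3) and 8.00 ± 0.11 on control arrays (SD, n = 2), a difference of 0.66 ± 0.22 (limma adjusted p = 0.777). Over the 5 arrays with 1 label, 0 of 10 passed and 0% of probes were called by limma, with adjusted p between 0.16 and 0.647 for the members. AURKA there had a difference of 0.66 ± 0.11 and PLK1 of 0.67 ± 0.14. Crizotinib 8 h arrays by value table also differed in the melanocytic marker sum, which mostly reads SOX10. The sum was 2207 to 2422 on them and 2944 to 3106 on controls in linear units, and 2350 to 2486 on ciclopirox 8 h arrays. The fibroblast marker sum is mostly background, as 4 of its 6 genes were detected on no array and 0 on all. By value table it was 164 to 174.5 on ciclopirox 8 h arrays and 160.8 to 162 on ciclopirox 24 h arrays. It was 170.3 to 184 on crizotinib 8 h arrays and 166.5 to 174.6 on crizotinib 24 h arrays, against 153.4 to 155.7 on controls. The part of either in the members' values was not tested.

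Crizotinib at 24 h also gave lower mitotic transcripts than control under the value-table labels. Here 7 of 10 members fell, beside 18.9% of probes called, and all 10 lay below both controls on both arrays, as did 31% of probes. CCNA2 fell 1.91-fold, to 10.19 ± 0.25 on crizotinib 24 h arrays against 11.12 ± 0.03 on control arrays (SD, n = 2 each; log2 -0.93 ± 0.13, limma adjusted p = 0.000771). CDC20 fell 1.75-fold, to 13.12 ± 0.05 on crizotinib 24 h arrays against 13.92 ± 0.01 on control arrays (SD, n = 2 each; -0.80 ± 0.09, limma adjusted p = 0.000245). CCNB1 fell by 0.67 log2 units, ILMN_1714730 by 0.62, TPX2 by 0.59, AURKA by 0.52 and KIF20A by 0.46. CCNB2, TOP2A and PLK1 had differences of -0.29 ± 0.10, -0.29 ± 0.10 and -0.36 ± 0.17 (limma adjusted p = 0.0711, 0.0735 and 0.172). The melanocytic marker sum, mostly SOX10, was 3227 to 3302 on crizotinib 24 h arrays and 2944 to 3106 on controls. The fibroblast sum, mostly background, was 166.5 to 174.6 on crizotinib 24 h arrays and 153.4 to 155.7 on controls. The part of either in the members' values was not tested.

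For crizotinib at 24 h 0 of 10 members passed by description (limma; 0 at an unadjusted p below 0.05), with 0% of probes called. The differences lay between -0.25 for KIF20A and 0.24 for PLK1. CDC20 had a difference of 0.17 ± 0.20 there (limma adjusted p = 0.991), the opposite side of control from its value under the other labels. No array carried the label crizotinib 24 h, or ciclopirox 8 h, in both tables.

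**Figure D3:**
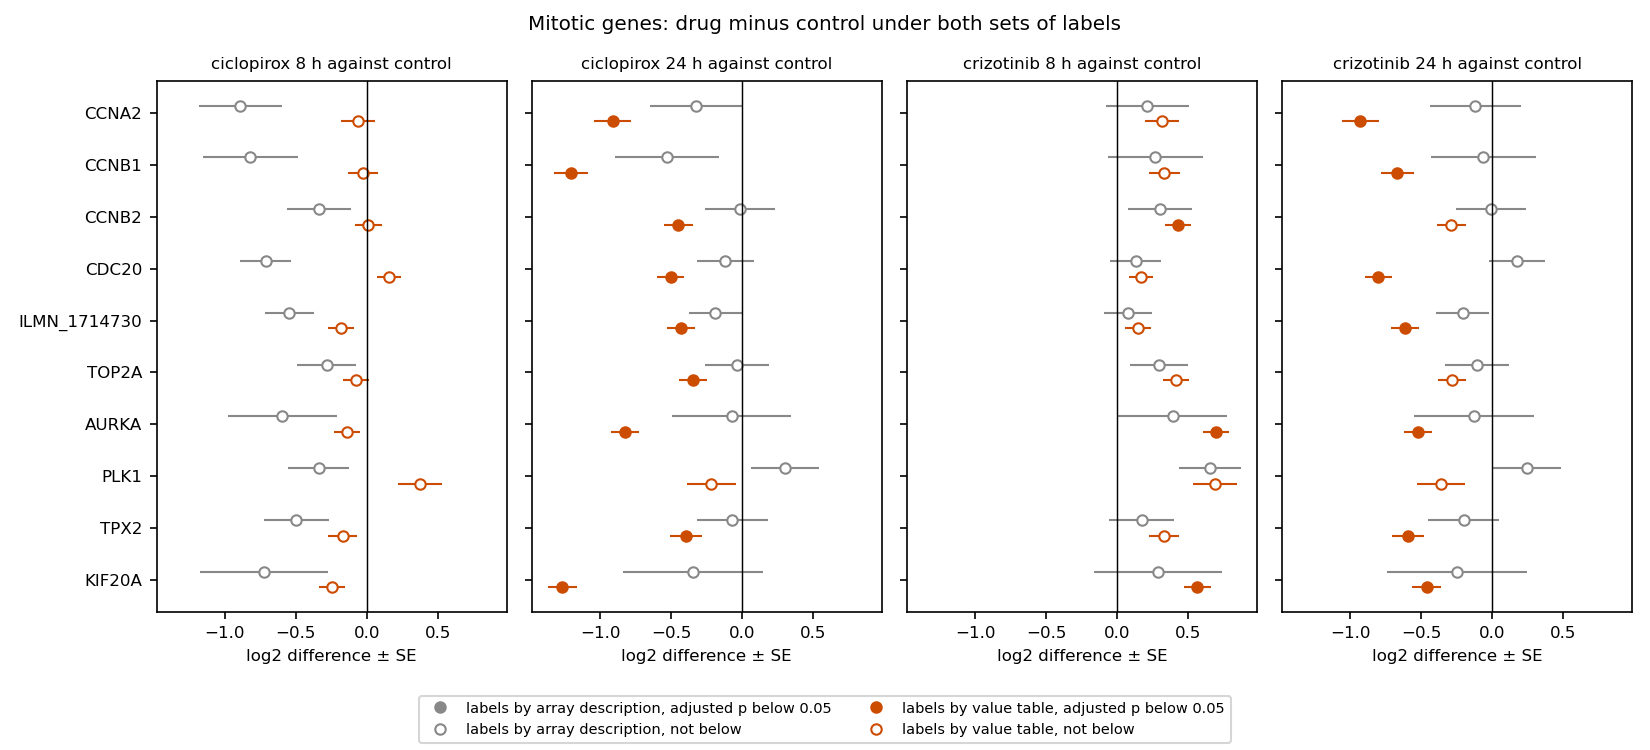
Log2 difference (drug minus control, ± SE from limma) of the 10 members in 4 comparisons, under the description labels (grey, upper of each pair) and the value-table labels (orange, lower); filled points have an adjusted p below 0.05. Under the value-table labels 9 points at ciclopirox 24 h and 7 at crizotinib 24 h are filled to the left of 0, and 3 at crizotinib 8 h to the right; under the description labels 0 are filled.

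The drugs were set against each other at matched times, in 2 comparisons. At 8 h all 10 members had lower means with ciclopirox than with crizotinib under both sets of labels, though by value table the arrays overlapped for CDC20 and PLK1. Under the value-table labels 6 of 10 were called lower, beside 4.2% of probes, and 8 of 10 had no overlap, as did 12.8% of probes in that direction. AURKA averaged 11.16 ± 0.05 on ciclopirox 8 h arrays and 11.997 ± 0.07 on crizotinib 8 h arrays (SD, n = 3 each), 1.78-fold lower (log2 -0.83 ± 0.08, limma adjusted p = 0.000332). KIF20A was 1.76-fold lower (-0.81 ± 0.08, limma adjusted p = 0.000409), and TPX2, TOP2A, CCNB2 and ILMN_1714730 were lower by 0.33 to 0.50 log2 units. CDC20 had a difference of -0.01 ± 0.08 (limma adjusted p = 0.963). Without crizotinib 8 h replicate 1 (array G) or ciclopirox 8 h replicate 2 (array K) 3 were called.

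By description all 10 members had no overlap between ciclopirox 8 h and crizotinib 8 h arrays, as did 13.3% of probes in that direction, and 3 of 10 were called lower beside 2.85% of probes. CCNA2 averaged 10.22 ± 0.19 on ciclopirox 8 h arrays and 11.33 ± 0.15 on crizotinib 8 h arrays (SD, n = 3 each), 2.15-fold lower (log2 -1.11 ± 0.26, limma adjusted p = 0.0493). PLK1 was 1.99-fold lower (-0.99 ± 0.19, limma adjusted p = 0.0347) and CDC20 1.80-fold lower (-0.84 ± 0.16, adjusted p = 0.0342). When arrays were blocked by replicate number, 4 were called. The count was 0 when any 1 of 9 arrays was left out: either control, ciclopirox 8 h replicate 1 or 2, any crizotinib 8 h array or either crizotinib 24 h array. It was 10 when 1 ciclopirox 24 h array, F or G, was left out.

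At 24 h the value-table labels gave 2 of 10 members lower with ciclopirox than with crizotinib, beside 14.8% of probes called. KIF20A averaged 9.91 ± 0.03 on ciclopirox 24 h arrays and 10.71 ± 0.14 on crizotinib 24 h arrays (SD, n = 2 each), 1.75-fold lower (log2 -0.81 ± 0.10, limma adjusted p = 0.000432). CCNB1 was 1.45-fold lower (-0.54 ± 0.12, limma adjusted p = 0.0121). CDC20 lay the other way, at 0.30 ± 0.09 log2 units (limma adjusted p = 0.0545), and CCNA2 had a difference of 0.02 ± 0.13 (adjusted p = 0.944). One member was called without crizotinib 24 h replicate 1 (array C) or ciclopirox 24 h replicate 2 (array F). Under the description labels 0 of 10 passed (limma; 0 at an unadjusted p below 0.05), with 0% of probes called, and the arrays of the groups overlapped for all 10.

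Between the times of each drug, the value-table labels gave lower values at 24 h. With crizotinib 10 of 10 members were lower at 24 h than at 8 h, beside 20.3% of probes called, and 10 of 10 had no overlap, as did 24.2% of probes in that direction. AURKA averaged 10.78 ± 0.01 on crizotinib 24 h arrays (SD, n = 2) and 11.997 ± 0.07 on crizotinib 8 h arrays (SD, n = 3), 2.33-fold lower (log2 -1.22 ± 0.09, limma adjusted p = 1.223e-05). CCNA2 was 2.37-fold lower (-1.25 ± 0.12, limma adjusted p = 6.205e-05), and TOP2A, with the smallest difference, 1.62-fold lower (-0.70 ± 0.09, adjusted p = 0.000458). With ciclopirox 7 of 10 were lower at 24 h than at 8 h, beside 17.1% of probes called, and 10 of 10 had no overlap, as did 22.9% of probes. CCNB1 averaged 7.59 ± 0.11 on ciclopirox 24 h arrays (SD, n = 2) and 8.77 ± 0.10 on ciclopirox 8 h arrays (SD, n = 3), 2.26-fold lower (-1.18 ± 0.11, limma adjusted p = 8.887e-05). ILMN_1714730, TOP2A and TPX2 had differences of -0.24, -0.27 and -0.22 (limma adjusted p between 0.0685 and 0.167).

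The description labels gave 0 of 10 members between the times of either drug, with 0% of probes called in each of the 2 comparisons (limma). At an unadjusted p below 0.05 there were 2 for ciclopirox, CDC20 and PLK1, and 0 for crizotinib. For ciclopirox all 10 differences were above 0 (24 h over 8 h), between 0.25 and 0.64 log2 units, the opposite direction from the value-table labels. Without ciclopirox 24 h replicate 1 (array F), which leaves G alone for that group, 3 members were called higher at 24 h. For crizotinib 9 of 10 differences were below 0, from -0.54 for KIF20A to 0.04 for CDC20.

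The other genes of mitosis were taken from 9 lists with 118 genes, of which 105 had a kept probe. Under the value-table labels 46 of the 105 fell and 3 rose at ciclopirox 24 h against control, with a median difference of -0.41 log2 units beside -0.01 over all probes. At crizotinib 24 h 64 fell and 0 rose (median -0.54, all probes -0.02). At crizotinib 8 h 5 rose and 0 fell (median 0.14, all probes 0.00), and at ciclopirox 8 h 0 passed in either direction by limma (median -0.05, all probes -0.01). The shares of all probes called in these comparisons were 14.6%, 18.9%, 1.53% and 0.536%.

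Among spindle and cytokinesis genes 13 of 16 fell at ciclopirox 24 h and 10 of 16 at crizotinib 24 h. TACC3, which binds spindle microtubules, fell by 0.96 and 0.94 log2 units in these comparisons, which share the control arrays. KPNA2, an importin that carries spindle factors, fell by 0.91 at ciclopirox 24 h. Of the mitotic kinases and the chromosomal passenger complex, 6 of 10 fell at ciclopirox 24 h and 10 of 10 at crizotinib 24 h. The passenger subunits INCENP and BIRC5 fell by 0.85 and 0.82 at ciclopirox 24 h, and the histone kinase HASPIN fell by 1.08 at crizotinib 24 h.

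The regulators of CDK1 had 5 of 9 lower at ciclopirox 24 h and 7 of 9 at crizotinib 24 h. The phosphatase CDC25A fell by 1.37 and the kinase PKMYT1, which holds CDK1 inactive, by 1.08 at crizotinib 24 h. Of 13 kinetochore and centromere genes, 7 fell at ciclopirox 24 h and 8 at crizotinib 24 h, CENPW among them by 1.28 at crizotinib 24 h. The checkpoint kinase BUB1 fell by 0.89 at ciclopirox 24 h, where 3 of 10 checkpoint genes fell and KNTC1 rose by 0.35. Of 9 mitotic kinesins 5 fell at ciclopirox 24 h and 8 at crizotinib 24 h. Of 9 condensation genes 2 and 7 fell, MKI67, a coat protein of mitotic chromosomes, by 1.02 at ciclopirox 24 h. Of 15 genes of the anaphase promoting complex and its regulators 3 and 4 fell, the separase ESPL1 by 0.81 and 0.98.

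Of 14 transcription factors of G2 and M genes 2 fell and 2 rose at ciclopirox 24 h, and 6 fell at crizotinib 24 h. E2F2 fell by 1.37 log2 units at ciclopirox 24 h (limma adjusted p = 7.07e-05) and fell by 1.66 at crizotinib 24 h (adjusted p = 1.03e-05). E2F7, a repressor of the E2F family, rose by 1.12 ± 0.14 at ciclopirox 24 h (limma adjusted p = 0.00063), as did LIN37, a subunit of DREAM, by 0.54. LIN37 and KNTC1 lay outside the naming rule and were named after their values were seen, as the other genes that rose. Between ciclopirox 24 h and crizotinib 24 h, 22 of 105 were higher and 3 lower. E2F7 was higher by 1.17, the E2 enzyme UBE2S by 1.10 and HASPIN by 0.96, and HMMR, a spindle protein, was lower by 0.57. The UBE2S probe was detected on only 7 of the 12 arrays. In that comparison 14.8% of all probes were called. The genes higher at crizotinib 8 h than in control were the centromeric histone CENPA (0.63), the checkpoint kinase TTK (0.56), the phosphatase CDC25C (0.55), the kinesin KIF2C (0.52) and the CENPA chaperone HJURP (0.47).

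Between the times, 40 of the 105 were lower and 5 higher at 24 h than at 8 h of ciclopirox under the value-table labels (median -0.31), with BUB1 lower by 0.99 and the passenger subunit BIRC5 by 0.92. With crizotinib 78 were lower and 0 higher at 24 h than at 8 h (median -0.70), led by the kinesins KIFC1 (-1.38) and KIF2C (-1.33). By description 0 passed in either of these comparisons (limma), with medians of 0.31 for ciclopirox and -0.13 for crizotinib. The shares of all probes called were 17.1% and 20.3% by value table and 0% by description.

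Under the description labels 5 of the 105 fell and 0 rose at ciclopirox 8 h against control, where the median was -0.46 and 2.84% of probes were called. They were E2F2 (log2 -1.58 ± 0.28, limma adjusted p = 0.0286), CENPW (-1.21 ± 0.18, adjusted p = 0.0208), CDC25A (-1.10 ± 0.22, adjusted p = 0.0331), ZWINT (-0.78 ± 0.16, adjusted p = 0.0333) and NUF2 (-0.76 ± 0.17, adjusted p = 0.0444), the last 2 being kinetochore proteins. The medians were -0.13, 0.09 and -0.06 at ciclopirox 24 h, crizotinib 8 h and crizotinib 24 h, with 0 called in each by limma. Between ciclopirox 8 h and crizotinib 8 h 11 were lower and 0 higher, led by E2F2 (-1.31), SPC25 (-1.16) and KIFC1 (-1.16), beside 2.85% of all probes called. By value table that comparison had 26 lower and 0 higher, led by KIF18A (-0.75), INCENP (-0.71) and NEK2 (-0.68), beside 4.2% of all probes called.

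**Figure D4:**
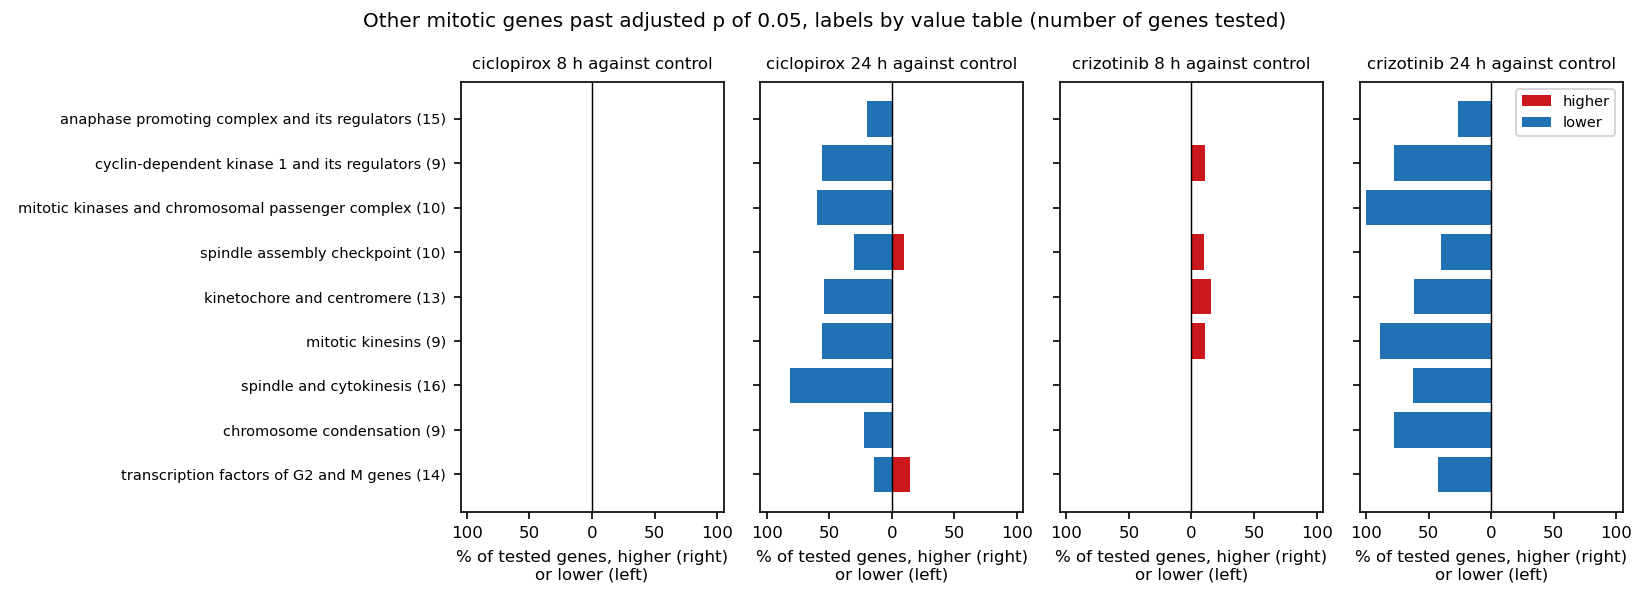
Percent of tested genes of 9 mitotic lists with an adjusted p below 0.05, higher (right, red) or lower (left, blue) than control, in 4 comparisons under the value-table labels; the number tested stands after each list's name. The 10 genes of the mitotic kinase list are all lower at crizotinib 24 h, and 0 of 105 genes pass at ciclopirox 8 h.

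The probes most like the mean of the 10 members over the 12 arrays, among the 18275 others kept, were those of FAM83D (ILMN_1781943, r = 0.9865), CDCA8 (0.986), CENPA (0.9858 and 0.984 for ILMN_2392472 and ILMN_1801257), BORA (0.9841), PIMREG (0.9797) and AURKB (0.9777). These 7 of the 10 closest were listed with a gene, and the median r over all others was 0.0181. The values share the arrays and their normalization with the members. FAM83D and CDCA8 are spindle and passenger complex proteins, BORA activates the kinase PLK1, and AURKB is the passenger complex kinase. The second probe of AURKA, ILMN_2357438, had r of 0.955 with the mean.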

How the data were processed

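RNA of 12 WM35 samples was hybridised to 1 BeadChip. The non-normalized table holds, per the file headers, a signal intensity and a detection p-value per probe and array; GenomeStudio is named, without a version, in the submitters' processing notes. Of the deposited intensities, 27.1% to 30.2% per array were below 0. The value table holds deposited intensities of 38223 probes on a linear scale (lowest 12.1, column medians 25 to 26.4), with no normalization stated in the labels. No per-sample column was left unused (0).

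Intensities were normalized with neqc of limma 3.58.1 in R 4.3.3, with an offset of 16, quantile normalization and log2. The filter asked for detection (p below 0.01) on 2 or more arrays and kept 18285 probes. lmFit and eBayes were run on all 12 arrays with a mean for each group (7 residual degrees of freedom), tests were two-sided, and p-values were adjusted by Benjamini-Hochberg over all kept probes at 0.05. The precision is limited by the number of arrays. Group labels from the sample descriptions were the planned ones. The comparisons with value-table labels and with the 5 arrays of 1 label (2 residual degrees of freedom) were added after the tables were seen to disagree.

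The members and gene lists were chosen with earlier results of these data known. The rule named all 10 members in each comparison, at most 10 of the largest called differences among list genes, and the 10 probes most like the members. A list gene was read from its kept probe with the highest mean. Of 27008 probes in the annotation table, 27004 had 1 gene. Same-numbered arrays of ciclopirox 8 h and crizotinib 8 h deviated together under the description labels (3 pairs, r of 0.169 to 0.335). Under the value-table labels r was -0.105 to 0.0221. The values are not independent, because deviations within a group sum to 0. Replicate 3 of both groups by description (arrays E and J) has another group by value table. The labels state no pairing, and none can be read from these values. Nothing in the labels says that arrays of a group were separate cultures, so p-values cover only the spread between arrays, possibly technical. Fits were tested on simulated data.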

Additional observations from a re-analysis of the deposited data

Results flagged for a closer look

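The members differed between the 2 times of a drug, mostly under the value-table labels. Each value is the log2 difference of 24 h minus 8 h, tested with limma. The shared controls drop out of it. As no control carried a time, drug effect and time in culture cannot be told apart here. With crizotinib under the value-table labels, all 10 members passed: CCNA2 (-1.25), CCNB1 (-1.002), CCNB2 (-0.719), CDC20 (-0.971), ILMN_1714730 (-0.762), TOP2A (-0.70), AURKA (-1.22), PLK1 (-1.05), TPX2 (-0.922) and KIF20A (-1.03). For each of them every crizotinib 8 h array lay above both controls and every crizotinib 24 h array below both.

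With ciclopirox under the value-table labels, 7 members passed: CCNA2 (-0.847), CCNB1 (-1.18), CCNB2 (-0.46), CDC20 (-0.66), AURKA (-0.684), PLK1 (-0.59) and KIF20A (-1.02). For CDC20 and PLK1 the ciclopirox 8 h arrays lay above both controls and the ciclopirox 24 h arrays below both, and for the other 5 they did not fall on opposite sides. The margins were small for PLK1, with K at 8.085 against 8.084 on control A, and F at 7.874 against 7.926 on B. PLK1 passed against control at neither time (limma adjusted p = 0.346 at 8 h and 0.433 at 24 h). CDC20 passed only at 24 h (limma adjusted p = 0.485 at 8 h and 0.0058 at 24 h).

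Under the description labels only CCNA2 stood out, and by the sides of its arrays rather than by the test. Its crizotinib 24 h arrays lay below both controls and its crizotinib 8 h arrays above both, with a difference of -0.334 (limma adjusted p = 0.998). The conflict between the tables bears on all of these values, and its cause was not tested.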

How the results depend on the processing

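Under the description labels 1578 of 1780 member differences kept their side of the threshold. A call was lost for 36 and gained for 145, and 21 reversed, with a call in the opposite direction. A difference called in neither fit is not counted as reversed even where its sign changed. For ciclopirox 24 h minus 8 h, TPX2 was 0.43 by description and -0.25 in the value table. Under the value-table labels the counts were 1491 of 1620, 102, 27 and 0. Causes were not tested. The fit without 3 arrays (E, G and J, chosen with earlier results known) kept C, D, K and L, which also had another group by value table. Its counts are therefore no independent check of the calls.

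With description labels, 0 members were called at ciclopirox 8 h against control, and 1 with median centring, an offset of 50, probes detected on all 12 arrays or the replicate block, 4 with array weights, 7 without the 3 arrays unlike their label (E, G and J, chosen with earlier results known), and 0 to 3 leaving out 1 array. At ciclopirox 24 h the 0 became 9 in the value table and 9 with its labels, 4 without the 3 arrays and 4 over the 5 arrays. At crizotinib 8 h 0 became 3 and 3 with value table and its labels, and at crizotinib 24 h 8 and 7. The calls at crizotinib 8 h shared AURKA and KIF20A but differed in the third member. With neqc values it was CCNB2 (limma adjusted p = 0.04775, PLK1 0.05545). In the value table it was PLK1 (limma adjusted p = 0.0489, CCNB2 0.0737). Between the drugs at 8 h 3 became 5 with the offset of 50 or probes detected on all arrays, 0 with no filter on dim probes, 9 with array weights, 6 and 6 with value table and its labels, 10 without the 3 arrays, and 0 to 10 leaving out 1 array. Between the drugs at 24 h 0 became 3, 2 and 5 with value table, its labels and without the 3 arrays. Between the times of ciclopirox it became 7, 7 and 1, with 0 to 3 leaving out 1 array, and between the times of crizotinib 10, 10 and 2.

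The reversed log2 differences counted above were those of CDC20 at crizotinib 24 h against control (-0.81 in the value table, -0.80 with its labels) and crizotinib 24 h minus 8 h (-0.96 and -0.97), and of AURKA between the drugs at 24 h (-0.35 in the value table, -0.78 without the 3 arrays). For ciclopirox 24 h minus 8 h they were CCNA2 (-0.84 and -0.85), CCNB1 (-1.29 and -1.18), CCNB2 (-0.48 and -0.46), CDC20 (-0.68 and -0.66), AURKA (-0.71 and -0.68), PLK1 (-0.69 and -0.59) and KIF20A (-0.998 and -1.02, and -0.83 without the 3 arrays). ILMN_1714730, TOP2A and TPX2 also changed sign there (-0.24, -0.28 and -0.25 in the value table). They were not called and are not counted as reversed.

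With value-table labels, the 9 called at ciclopirox 24 h became 4 with only the compared groups in the fit and 4 over the 5 arrays (5 to 9 leaving out 1 array). The 3 at crizotinib 8 h became 1 with median centring, 5 with the offset of 50, probes detected on all arrays or array weights, and 0 with only the compared groups or over the 5 arrays (0 to 3 leaving out 1). The 6 between the drugs at 8 h became 3 with median centring (3 to 6 leaving out 1), and the 2 at 24 h became 4 with probes detected on all arrays and 1 with only the compared groups (1 to 2 leaving out 1). The replicate block changed no other count by over 1.5 times; with value-table labels it gave 7 at ciclopirox 24 h, 2 at crizotinib 8 h and 10 between the times of crizotinib. Deviations from the group means of same-numbered ciclopirox 24 h and crizotinib 24 h arrays correlated at r of 0.379 there. With 2 arrays a group this is a single value, and its sign rests on the numbering.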
